A study of Homo sapiens with 6 samples.

Results

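The genes described here encode the proteins that recognise replication origins, fire them and copy DNA at the fork. They comprise 48 of the 58735 genes in the count table, chosen by symbol from a list of origin recognition, helicase activation, polymerase, clamp loading, fork protection and nucleotide supply genes. All 48 symbols were found, and 47 had enough counts to be tested, the exception being RNASEH2A. The libraries came from ACHN cells, a human renal carcinoma line of wild-type genotype that the submitters label as clear cell renal cell carcinoma. Poly(A)-selected RNA was sequenced from 3 cultures treated with curcumol, a sesquiterpene from Curcuma rhizomes, and from 3 control cultures. The sample labels call the control a vehicle control and the series text calls it untreated. The sources used here give neither dose nor exposure time. The stated interest of the series was glycolysis and malignant behaviour under curcumol.

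Replication starts where the origin recognition complex sits on DNA and loads the MCM helicase. The helicase is switched on in S phase by the CDC7-DBF4 kinase together with CDC45 and the GINS complex, after which polymerase alpha-primase lays down primers and polymerases epsilon and delta extend them on the PCNA clamp. Many of the genes involved are transcribed late in G1 and in S phase under E2F factors, so their mRNA falls when a culture holds fewer cycling cells. In bulk RNA, fewer cells in S phase and less of an mRNA per cell cannot be told apart.

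The libraries held 16962012 to 17827433 counts. PAX8, PAX2, KRT8 and KRT18 of renal and epithelial cells were expressed in both groups. Of 10 such markers 9 were seen, meaning at least 1 count in any library. CDH16 had 2 to 5 counts in curcumol libraries and 15 to 27 in control libraries, and CUBN 12 to 30 and 3 to 8. CA9, a gene typical of clear cell tumours, had 0 to 3 counts in curcumol libraries and 0 to 1 in control libraries, and LRP2 of the proximal tubule had 0 in each. Summed renal and epithelial markers stood at 2768 to 3172 CPM (counts scaled to library size with TMM factors) in curcumol and 4032 to 4365 CPM in control. Of this sum VIM gave 876 to 991 CPM in curcumol and 1183 to 1351 CPM in control. Summed marker levels of blood cells were 4.74 to 5.53 CPM in curcumol and 0 to 0.155 CPM in control, with 4 of 5 markers seen and CD3E at 0. CD14 made up most of it, with 71, 77 and 67 counts in curcumol libraries and 0, 3 and 2 in control libraries. Those of endothelial cells were 0.128 to 0.821 CPM in curcumol and 0.0516 to 0.155 CPM in control, with 4 of 4 seen, and those of fibroblasts 2.75 to 13.4 CPM in curcumol and 4.80 to 5.38 CPM in control, with 5 of 5 seen. Within that sum COL3A1 had 28, 58 and 23 counts in curcumol and 0 in each control library, while COL1A1 had 14, 66 and 27 counts in curcumol and 91 to 100 in control. Curcumol replicate 2 stood apart with 70 counts of COL1A2, 11 of DCN and 8 of PDGFRA, where the other curcumol libraries had at most 1 of each and control libraries at most 2. The part of these cell types in the results was not tested. In curcumol the top 10 genes held 8.79% ± 0.327 of counts, against 5.76% ± 0.200 in control (SD, n = 3 each).

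RefSeq promoter windows, which run from 250 bases before a gene's start to 50 after it (GRCh38.p14), were found for 43 of the 48 genes. Promoters are shown for the 3 most reduced genes whose window holds an E2F-type motif and for ORC6, the most increased gene, to show the motif beside genes that changed in opposite directions. The motif TTTNNCGC is in capitals, on either strand. The windows are chr19:48170295-48170594 (minus strand), chr12:132687293-132687592 (minus strand), chr11:65261712-65262011 (plus strand) and chr16:46689409-46689708 (plus strand).
LIG1: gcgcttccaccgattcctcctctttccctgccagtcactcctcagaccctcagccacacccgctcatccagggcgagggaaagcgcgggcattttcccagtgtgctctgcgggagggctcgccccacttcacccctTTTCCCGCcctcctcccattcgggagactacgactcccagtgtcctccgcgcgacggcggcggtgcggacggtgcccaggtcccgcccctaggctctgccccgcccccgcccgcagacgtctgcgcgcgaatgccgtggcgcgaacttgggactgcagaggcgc
POLE: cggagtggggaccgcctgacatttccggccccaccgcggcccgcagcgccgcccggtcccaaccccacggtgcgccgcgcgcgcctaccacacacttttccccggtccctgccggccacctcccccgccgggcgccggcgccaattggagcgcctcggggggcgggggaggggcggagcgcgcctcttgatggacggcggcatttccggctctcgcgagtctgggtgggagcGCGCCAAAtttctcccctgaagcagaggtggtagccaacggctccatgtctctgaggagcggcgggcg
POLA2: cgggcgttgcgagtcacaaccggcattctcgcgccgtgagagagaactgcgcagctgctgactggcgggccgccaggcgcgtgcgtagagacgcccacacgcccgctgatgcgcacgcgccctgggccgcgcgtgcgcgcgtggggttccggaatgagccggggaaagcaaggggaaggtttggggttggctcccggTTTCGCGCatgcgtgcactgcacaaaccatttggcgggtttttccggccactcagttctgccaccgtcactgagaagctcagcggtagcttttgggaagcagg
ORC6: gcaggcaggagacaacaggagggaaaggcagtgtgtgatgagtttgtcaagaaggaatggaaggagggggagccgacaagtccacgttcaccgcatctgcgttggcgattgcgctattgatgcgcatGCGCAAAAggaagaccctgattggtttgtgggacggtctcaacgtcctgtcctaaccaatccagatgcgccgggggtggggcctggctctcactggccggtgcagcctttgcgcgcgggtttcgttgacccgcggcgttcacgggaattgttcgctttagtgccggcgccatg
The LIG1 match read TTTCCCGC and began 114 bases before the start, and the POLA2 match read TTTCGCGC and began 53 bases before it. Those of POLE (TTTGGCGC) and ORC6 (TTTTGCGC) lay on the reverse strand, and as printed their first bases were 18 and 123 bases before the start. The match in the reduced genes was fixed by how they were chosen. The windows of RFC4, POLD1, CDC45 and RRM2, which fell by as much as or more than POLA2, hold no TTTNNCGC on either strand.

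Curcumol-treated cells had lower mRNA for most of the replication machinery and higher mRNA for a minority, among them ORC6, ORC1, ORC4 and ORC3 of the origin recognition complex and DBF4, TOPBP1 and GINS3 of origin firing. Of the 47 tested genes, 33 fell, 9 rose and 5 did not pass the test (edgeR quasi-likelihood test, adjusted p under 0.05 over all genes tested). Over all 15160 tested genes 40.3% were called lower and 39.4% higher, 79.7% in all, so the share of replication genes that fell, 70.2%, lay above that background and the share that rose, 19.1%, below it. At least 2-fold falls were seen for 21 of the 47 genes and at least 2-fold rises for 3, against 23.1% and 21.3% of all tested genes. Among these rises GINS3 lay at the threshold, with a log2 fold change of 1.002. The median log2 fold change of curcumol over control was -0.93 for the replication genes and -0.02 for all tested genes. With library totals in place of TMM scaling the median of all genes moved to -0.28 and that of the replication genes to -1.20, with 37 lower and 8 higher, where 80.4% of all genes were called, 48.6% lower and 31.8% higher. At least 2-fold falls and rises then numbered 28 and 1, and with an offset for GC content, described below, 24 and 2. The shares of all genes at 2-fold were not counted for these 2 fits. Without curcumol replicate 2, 32 of the replication genes fell and 9 rose. DESeq2 called 33 lower and 10 higher, where it called 77.4% of all genes. The 3 curcumol libraries lay below the 3 control libraries for 33 of the genes, above them for 10 and overlapped with them for 4. Over all tested genes the groups did not overlap for 81%, with curcumol below for 41.1% and above for 39.8%.

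Summed over the 48 genes, replication mRNA took 0.280%, 0.287% and 0.281% of all counts in the curcumol libraries, against 0.484%, 0.477% and 0.492% in the control libraries. The groups did not overlap, and 0.1 is the smallest p an exact permutation test can give for 3 against 3. Without TOP2A the share was 0.252% ± 0.000691 in curcumol and 0.414% ± 0.00104 in control (SD, n = 3 each).

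**Figure D1:**
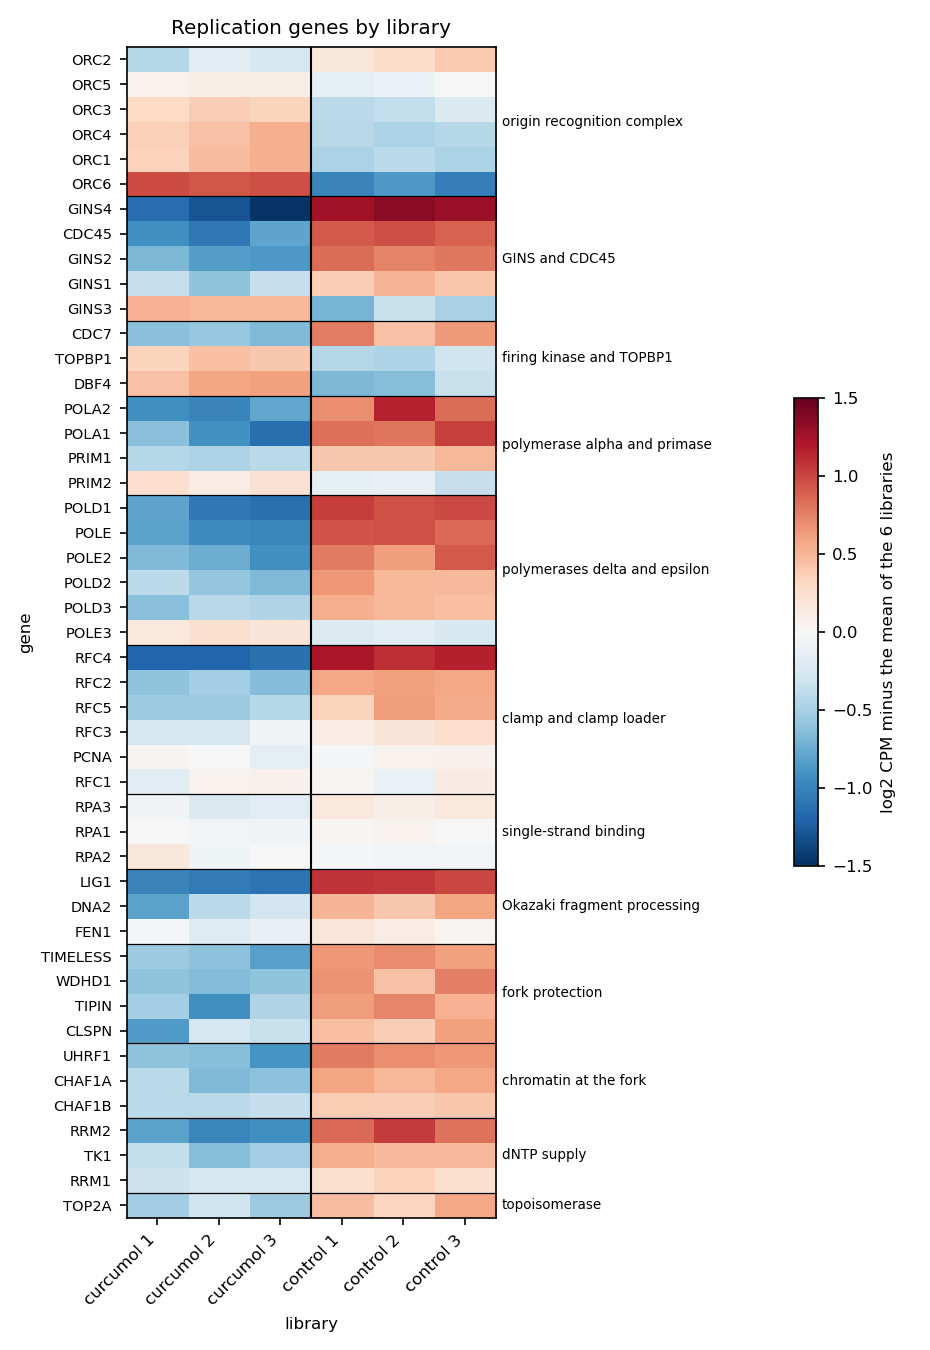
Log2 CPM of the 47 tested replication genes (rows, grouped by role) in each library (columns), shown as the difference from the mean of the 6 libraries. Blue is lower and red higher. The GINS, polymerase, clamp loader, ligase and fork protection rows are mostly blue in curcumol, with ORC6, ORC1, ORC4, ORC3, GINS3, DBF4 and TOPBP1 red.

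Of the 6 genes of the origin recognition complex 4 rose, 1 fell and 1 did not pass, with a median log2 fold change of 0.77. Of all tested genes 39.4% rose and 40.3% fell. The summary changed with an offset that removes each library's trend of counts with GC content. With this GC offset ORC6, ORC1 and ORC4 rose, ORC2 and ORC5 fell and ORC3 did not pass. ORC6, the smallest subunit, which the other subunits recruit to complete the complex, had 199, 193 and 198 CPM in curcumol libraries, against 51.2, 55.8 and 49.9 CPM in control libraries. The groups lay far apart, with a log2 fold change of 1.91 ± 0.07 (SE, adjusted p = 1.30e-16), the largest rise among the replication genes. ORC6 (ENSG00000091651) lies on the plus strand of chromosome 16 at 46689643 to 46698394 (GRCh38).

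ORC1, the ATPase subunit whose protein is degraded as human cells enter S phase, had 68.4, 74.5 and 77.5 CPM in curcumol and 38.5, 40.9 and 38.5 CPM in control. ORC4, another ATPase-fold subunit, had 87.3, 92.4 and 98.8 CPM in curcumol and 51.2, 49.1 and 50.7 CPM in control. ORC3, a core subunit, had 52.3, 54.8 and 53.5 CPM in curcumol and 32.0, 33.0 and 36.5 CPM in control. None of the 3 overlapped between groups, as for 81% of all tested genes. Their log2 fold changes were 0.90 ± 0.08 for ORC1, 0.88 ± 0.07 for ORC4 and 0.66 ± 0.08 for ORC3 (SE, adjusted p = 4.85e-10, 2.34e-10 and 1.55e-07). With the GC offset the rise of ORC1 was 1.01 and that of ORC4 0.28, while ORC3 stood at 0.15 and did not pass (adjusted p = 0.0671). With library totals ORC3 stood at 0.40 and passed.

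ORC5, also a core subunit, had 49.2, 50.8 and 50.4 CPM in curcumol and 43.2, 44.3 and 47.8 CPM in control. Its log2 fold change of 0.15 ± 0.08 did not pass (adjusted p = 0.0729), and with the GC offset it was -0.28 (adjusted p = 0.000592). ORC2, the core subunit that binds chromatin with ORC3, was the one that fell, by 0.56 ± 0.09 on the log2 scale (adjusted p = 4.30e-06), and it stood at -1.04 with the GC offset. Ratios of counts between partner genes, for pairs chosen after their values were seen, do not depend on how libraries are scaled. They are not adjusted for GC content. The counts of ORC6 were 5.62, 4.56 and 4.94 times those of ORC2 in curcumol libraries, and 0.957, 0.968 and 0.800 times in control libraries.

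The kinase that fires origins showed opposite changes in its subunits. DBF4, the regulatory subunit that activates the kinase, had 108, 120 and 122 CPM in curcumol libraries, against 49.8, 51.3 and 63.3 CPM in control libraries. CDC7, the catalytic subunit, had 8.46, 8.85 and 8.27 CPM in curcumol and 22.3, 17.7 and 20.4 CPM in control. Each was separated between the groups, as were 81% of all tested genes. Their log2 fold changes were 1.09 ± 0.08 for DBF4 and -1.24 ± 0.12 for CDC7 (SE, adjusted p = 1.57e-10 and 6.06e-09). DBF4 counts were 12.8, 13.5 and 14.8 times those of CDC7 in curcumol libraries and 2.23, 2.90 and 3.10 times in control libraries. TOPBP1, a scaffold for loading CDC45 and an activator of the ATR checkpoint kinase, had 128, 138 and 134 CPM in curcumol and 75.1, 73.1 and 82.4 CPM in control. It rose by 0.79 ± 0.07 (adjusted p = 4.76e-10). With the GC offset the rises of DBF4 and TOPBP1 were 0.61 and 0.47 and still passed. With library totals TOPBP1 stood at 0.53.

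GINS and CDC45 turn the MCM ring into a moving helicase. Of these 5 genes 4 fell and GINS3 rose, where 40.3% of all tested genes fell and 39.4% rose. GINS4 (ENSG00000147536, chromosome 8, 41529206 to 41545046), one of the subunits of the GINS tetramer, had the largest fall of all replication genes, with 7.43, 6.66 and 5.94 CPM in curcumol libraries and 39.1, 42.0 and 40.2 CPM in control libraries. Its log2 fold change was -2.60 ± 0.11 (SE, adjusted p = 3.76e-15), a level 6.06-fold lower. CDC45, which links GINS to the MCM ring, had 12.9, 11.7 and 14.2 CPM in curcumol and 46.5, 47.9 and 45.4 CPM in control. The groups were again apart, with a log2 fold change of -1.85 ± 0.10 (adjusted p = 1.30e-13).

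GINS2 changed by -1.58 ± 0.10. The smallest fall in this group was that of GINS1, which had 43.3, 36.2 and 43.6 CPM in curcumol and 71.6, 78.5 and 73.8 CPM in control, a change of -0.86 ± 0.08 (adjusted p = 3.37e-09). GINS3 went the other way, with 54.8, 54.1 and 53.8 CPM in curcumol libraries and 23.6, 30.3 and 27.3 CPM in control libraries. Its log2 fold change was 1.002 ± 0.09 (adjusted p = 1.26e-09). The complex holds its subunits in equal number, but the ratios here are of mRNA counts not scaled to transcript length, and no protein was measured. The count of GINS3 was 7.37, 8.12 and 9.06 times that of GINS4 in curcumol libraries and 0.604, 0.720 and 0.679 times in control libraries. An antisense gene shares 558 exonic bases with GINS3 and had 0 counts in each library, and 2 antisense genes overlap exons of GINS4 with at most 3 counts in a library.

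**Figure D2:**
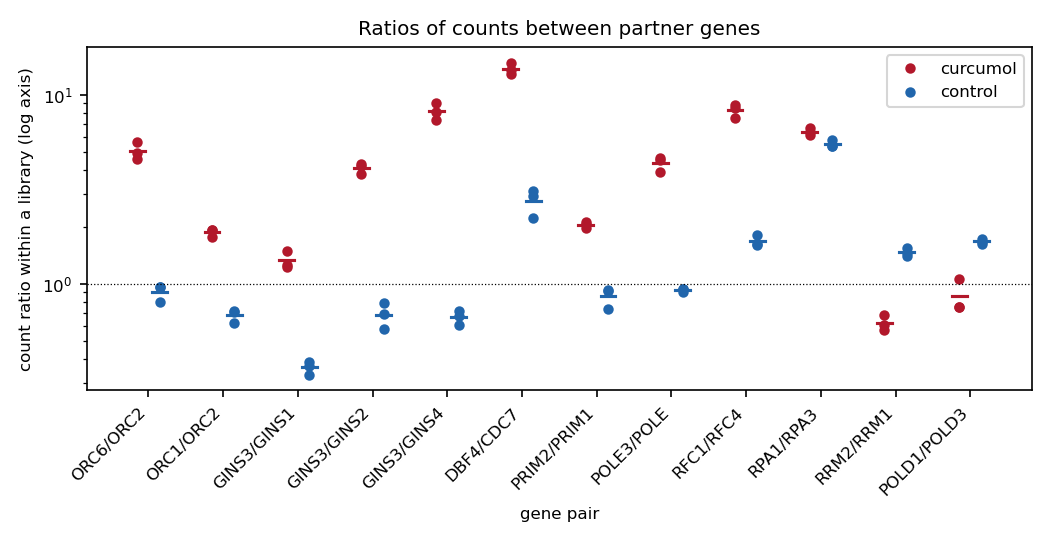
Ratio of the counts of 2 partner genes within a library (log axis), for curcumol and control libraries (points, with a bar at the mean of 3). The 12 pairs were chosen after their values were seen. Groups do not overlap for any pair shown, and the GINS3/GINS4 mean is 8.19 in curcumol and 0.668 in control. The ratios are not adjusted for GC content. The POLD1/POLD3 mean is 0.858 in curcumol and 1.68 in control, but with the GC offset POLD1 changed by -1.20 and POLD3 by -1.31.

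Polymerase alpha-primase makes the RNA-DNA primers. POLA1, its DNA polymerase subunit, had 11.3, 9.23 and 7.96 CPM in curcumol libraries and 30.9, 30.4 and 35.5 CPM in control libraries, with no overlap. It fell by 1.77 ± 0.12 on the log2 scale (SE, adjusted p = 1.38e-11). The accessory subunit POLA2 fell by 1.80 ± 0.18, with few counts per library (40 to 46 in curcumol and 150 to 215 in control). POLA2 shares 2012 exonic bases, 35.1% of its exons, with AP000944.2 on its own strand, which had 3 to 9 counts per library. Among the primase subunits, the catalytic PRIM1 fell by 0.87 ± 0.09 and stood at -1.32 with the GC offset. PRIM2, the large subunit, had 37.98, 34.7 and 37.5 CPM in curcumol and 29.1, 29.7 and 25.2 CPM in control, a rise of 0.39 ± 0.09 (adjusted p = 0.000495). This rise was absent with the GC offset (-0.011, adjusted p = 0.917) and did not pass with library totals (0.13, adjusted p = 0.199).

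Polymerases delta and epsilon copy most of the genome. Of their 6 genes 5 fell and POLE3 rose, where 40.3% of all tested genes fell and 39.4% rose. POLE, the catalytic subunit of the leading-strand polymerase, had 44.2, 39.6 and 39.2 CPM in curcumol libraries and 148, 149 and 139 CPM in control libraries. POLD1, the catalytic subunit of polymerase delta, had 24.1, 19.8 and 19.2 CPM in curcumol and 85.4, 80.9 and 82.5 CPM in control. Both were separated between the groups, as were 81% of all tested genes. Their log2 fold changes were -1.82 ± 0.07 for POLE and -1.98 ± 0.09 for POLD1 (SE, adjusted p = 1.06e-15 and 9.77e-15). POLD1 has the highest GC content of the tested replication genes, 65.0%, and its change was -1.20 with the GC offset.

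The accessory subunits POLE2 (-1.55 ± 0.15), POLD2 (-1.09 ± 0.07) and POLD3 (-0.998 ± 0.09) fell as well. POLD2 stood at -0.53 with the GC offset. POLE3, a histone-fold subunit of polymerase epsilon that also belongs to a chromatin remodelling complex, had 173, 183 and 176 CPM in curcumol and 134, 139 and 131 CPM in control. Its rise of 0.40 ± 0.06 passed (adjusted p = 2.47e-06), and with library totals it was 0.13 (adjusted p = 0.0421). POLE3 counts were 3.92, 4.62 and 4.49 times those of POLE in curcumol libraries and 0.909, 0.934 and 0.943 times in control libraries.

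PCNA, the sliding clamp, had 267, 258 and 236 CPM in curcumol libraries and 253, 267 and 270 CPM in control libraries. The groups overlapped, and the log2 fold change of -0.06 ± 0.06 did not pass (SE, adjusted p = 0.393). It fell by 0.23 with the GC offset and by 0.32 with library totals, and passed in both. Its loader, replication factor C, was uneven. RFC4, a small subunit, had 8.46, 8.41 and 8.84 CPM in curcumol libraries and 44.9, 41.5 and 43.2 CPM in control libraries. This was the second largest fall of the replication genes, -2.33 ± 0.10 (adjusted p = 4.39e-15), or 5.04-fold.

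The small subunits RFC2 (-1.18 ± 0.07), RFC5 (-1.01 ± 0.08) and RFC3 (-0.37 ± 0.08) fell as well, and RFC3 stood at -0.91 with the GC offset and -0.64 with library totals. RFC1, the large subunit found only in the replicative loader, had 63.7, 74.0 and 74.8 CPM in curcumol and 72.8, 67.0 and 78.3 CPM in control. These ranges overlapped and the change of -0.04 ± 0.08 did not pass (adjusted p = 0.680), though with the GC offset it was -0.43 and passed. RFC1 counts were 7.54, 8.80 and 8.46 times those of RFC4 in curcumol libraries and 1.62, 1.61 and 1.81 times in control libraries.

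Replication protein A coats single-stranded DNA in replication and repair. Of its 3 genes 1 fell and 2 did not pass, where 79.7% of all tested genes were called and 40.3% fell. RPA1, its large subunit, had 210, 203 and 201 CPM in curcumol and 212, 217 and 209 CPM in control, and the groups overlapped. Its log2 fold change was -0.06 ± 0.06 (adjusted p = 0.345) and that of RPA2 was 0.08 ± 0.07 (adjusted p = 0.303). RPA3, the smallest subunit, had 34.1, 30.5 and 31.7 CPM in curcumol and 39.4, 37.8 and 39.3 CPM in control, a fall of 0.28 ± 0.08 (adjusted p = 0.00475). RPA3 stood at -0.41 with the GC offset and -0.54 with library totals. With library totals RPA1 fell by 0.32 and passed, and RPA2 fell by 0.18 (adjusted p = 0.0285).

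Okazaki fragments are trimmed by FEN1 and DNA2 and sealed by LIG1. LIG1, DNA ligase 1 (ENSG00000105486, chromosome 19, 48115445 to 48170603), whose promoter is printed above, had 17.5, 16.7 and 16.1 CPM in curcumol libraries and 73.5, 72.0 and 69.6 CPM in control libraries. The separation was wide, with a log2 fold change of -2.10 ± 0.08 (SE, adjusted p = 1.30e-15). DNA2, a nuclease and helicase, fell by 0.99 ± 0.11 and stood at -1.59 with the GC offset. FEN1, the flap nuclease, had 80.6, 72.0 and 76.3 CPM in curcumol and 93.6, 89.0 and 84.3 CPM in control. Its fall of 0.22 ± 0.07 passed (adjusted p = 0.00690), but not without curcumol replicate 2 (-0.18, adjusted p = 0.0535) or with the GC offset (0.05, adjusted p = 0.460). With library totals FEN1 stood at -0.49. RNASEH2A, the catalytic subunit of ribonuclease H2, had 1, 3 and 3 counts in curcumol and 5, 15 and 8 in control, too few to be tested. It shares 1123 exonic bases with THSD8 on its own strand, which had 0 counts in each library, and how reads in shared exons were counted is not stated in these sources.

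All 4 genes that hold the fork together fell, where 40.3% of all tested genes fell. TIMELESS, which pairs with TIPIN to protect paused forks, had 85.9, 81.4 and 71.2 CPM in curcumol libraries and 197, 204 and 191 CPM in control libraries. CLSPN, claspin, which carries the checkpoint signal to CHK1, varied more, with 21.1, 31.8 and 30.2 CPM in curcumol and 51.8, 49.0 and 57.9 CPM in control. Neither overlapped between groups, as for 81% of all tested genes. The log2 fold changes were -1.31 ± 0.07 for TIMELESS and -0.93 ± 0.12 for CLSPN (SE, adjusted p = 1.67e-13 and 2.37e-06). WDHD1, a bridge between helicase and polymerase alpha, and TIPIN changed by -1.25 ± 0.09 and -1.24 ± 0.13.

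The genes that restore chromatin behind the fork also fell, 3 of 3, where 40.3% of all tested genes fell. UHRF1, which reads hemimethylated DNA and recruits DNMT1, had 78.3, 76.1 and 64.4 CPM in curcumol and 204, 193 and 187 CPM in control. Among the CAF-1 histone chaperone subunits, CHAF1B had 25.7, 25.7 and 26.6 CPM in curcumol and 44.3, 44.0 and 45.5 CPM in control. The groups were separate for both, as for 81% of all tested genes, with changes of -1.41 ± 0.07 for UHRF1 and -0.78 ± 0.08 for CHAF1B (adjusted p = 1.00e-13 and 1.65e-08). CHAF1A changed by -1.11 ± 0.08, or -0.63 with the GC offset.

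The mRNA of all 3 genes of deoxynucleotide supply fell, where 40.3% of all tested genes fell. RRM2, the S phase subunit of ribonucleotide reductase, had 68.2, 60.4 and 63.1 CPM in curcumol libraries and 216, 247 and 209 CPM in control libraries. RRM1, the catalytic subunit of the enzyme, had 99.99, 106 and 105 CPM in curcumol and 149, 159 and 148 CPM in control. Both were separated, as were 81% of all tested genes. Their log2 fold changes were -1.81 ± 0.07 for RRM2 and -0.55 ± 0.06 for RRM1 (SE, adjusted p = 1.62e-15 and 4.04e-08). RRM1 stood at -0.84 with the GC offset. The count of RRM2 was 0.682, 0.570 and 0.603 times that of RRM1 in curcumol libraries and 1.45, 1.55 and 1.41 times in control libraries. RRM2 shares 1077 exonic bases with AC007240.1 on its own strand, which had 7 to 22 counts in curcumol and 23 to 33 in control. TK1, the thymidine kinase of cycling cells, fell by 1.01 ± 0.07 and stood at -0.30 with the GC offset. TOP2A, the topoisomerase that untangles sister chromatids and peaks in G2, had 326, 379 and 322 CPM in curcumol libraries and 644, 583 and 700 CPM in control libraries. The groups were apart and the change was -0.91 ± 0.07 (adjusted p = 7.38e-10), or -1.44 with the GC offset.

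**Figure D3:**
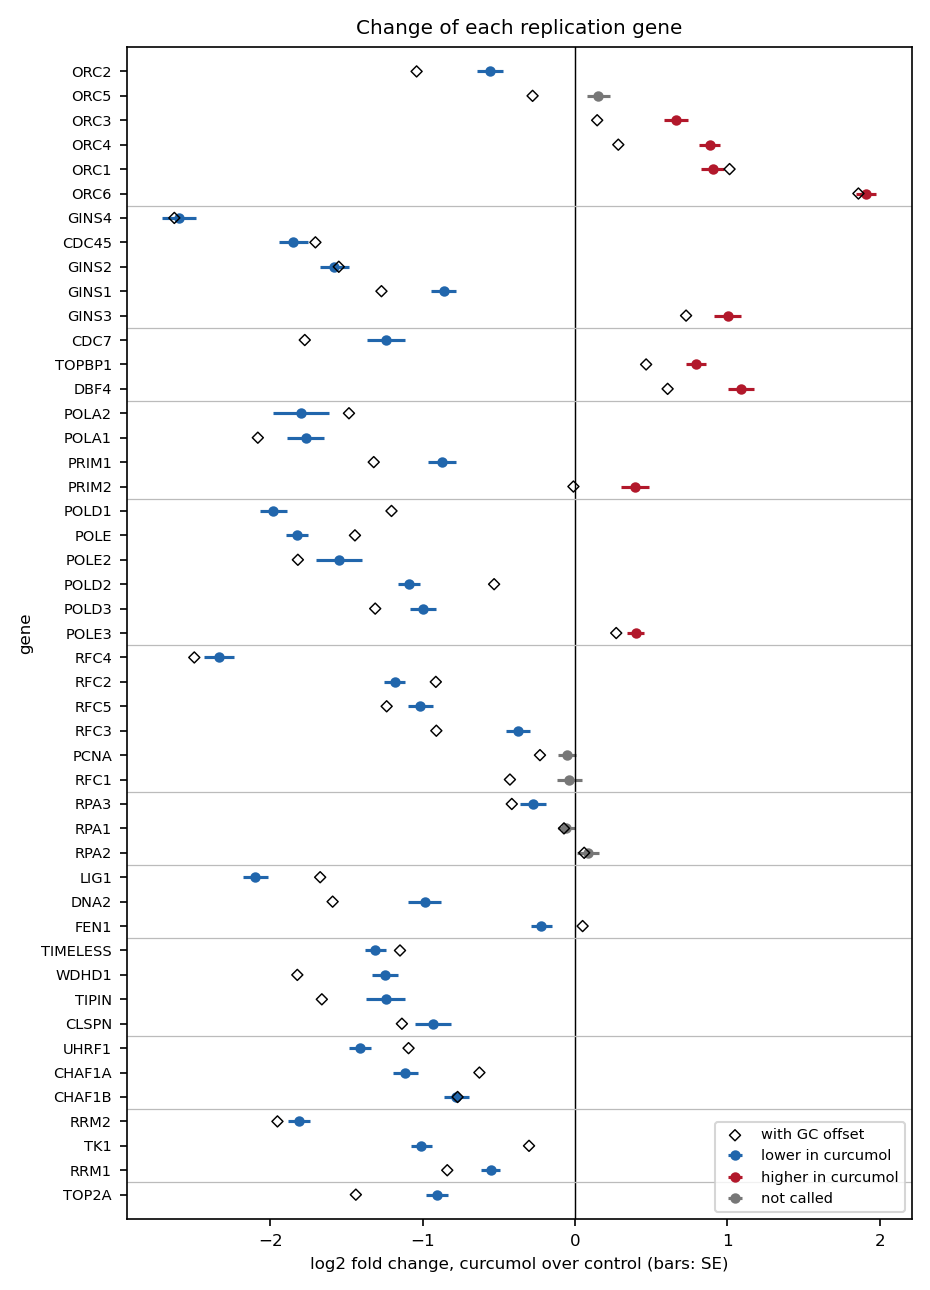
Log2 fold change of curcumol over control for each tested replication gene, by role (rows), with SE bars. Filled points are blue where the gene fell, red where it rose and grey where it did not pass; open diamonds are values with a GC offset. Values run from -2.60 for GINS4 to 1.91 for ORC6, and the diamonds of ORC5, PRIM2 and FEN1 lie on the other side of 0.

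Compared per kilobase of joined exons, PCNA stood highest in both groups, at 172 ± 10.7 CPM per kb in curcumol and 179 ± 6.15 CPM per kb in control (SD, n = 3 each). ORC6 ranked 5 of 48 in curcumol and 23 of 48 in control, at 45.7 ± 0.754 and 12.1 ± 0.722 CPM per kb. In control ORC6, GINS2 (12.1 ± 0.410), ORC5 (12.1 ± 0.654) and RPA3 (12.0 ± 0.278 CPM per kb) were neighbours whose spreads overlapped. POLA2 was the lowest tested gene, with 0.468 ± 0.0353 CPM per kb in curcumol and 1.63 ± 0.273 in control. Across the 47 tested genes, Spearman rho between level in control and log2 fold change was -0.0031. Such values across genes are a description, since the genes share libraries and are not independent replicates.

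The longest transcripts of the tested replication genes had a median GC content of 45.3% and a range of 37.6% to 65.0%, against a median of 48.0% for all tested genes with a value. Across the 47 genes, log2 fold change was lower at higher GC content (Spearman rho -0.39), and across all tested genes rho was -0.34. With the GC offset rho was 0.025 for the replication genes and -0.019 for all tested genes. The offset was fitted to GC content, so a value near 0 across all genes is built in. With it rho went from -0.38 to 0.35 among the 33 genes that fell and from 0.27 to 0.62 among the 9 that rose. GC content had a median of 45.8% among the genes that fell and 42.8% among those that rose. With the offset 35 of the 47 genes fell and 7 rose, where 79.4% of all tested genes were called, 41% lower and 38.4% higher.

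**Figure D4:**
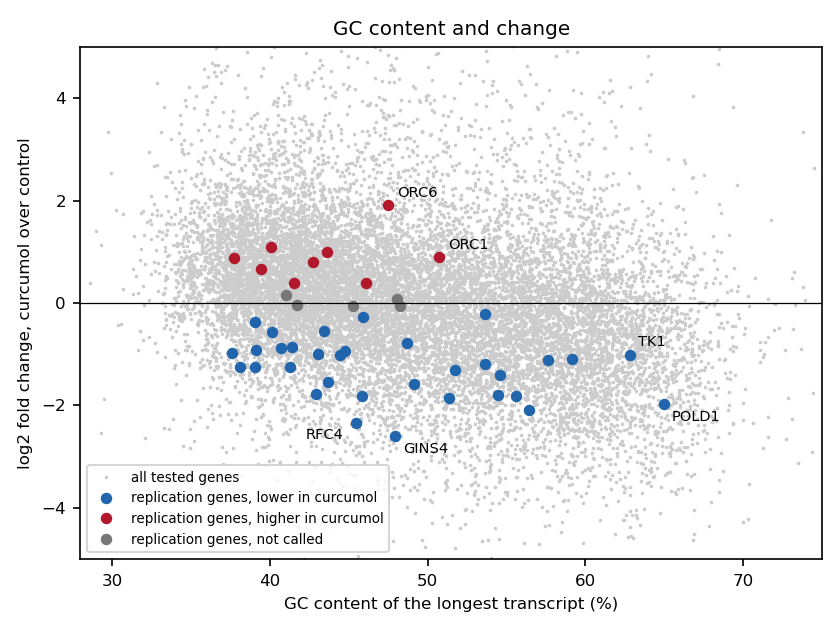
Log2 fold change of curcumol over control against GC content of the longest transcript, for all tested genes (light grey) and the replication genes (blue lower, red higher, dark grey not called). The replication genes that fell span 37.6% to 65.0% GC, and 180 of the other genes lie outside the axes.

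In the promoter windows the E2F-type motif TTTNNCGC, searched on both strands, occurred for 20 of 43 replication genes (46.5%), against 12.7% of the 10546 tested genes with a window. It was found for 13 of 29 genes that fell and for 4 of 9 that rose, and on the given strand alone for 7 of 29 that fell and 0 of 9 that rose. Per window the share was 36.8% for the replication genes and 9.40% for all tested genes. CCAAT, the motif bound by NF-Y, occurred for 25 of 43 (58.1%, against 42.9%). TTTGAA, a form of the CHR element of late cell cycle genes, occurred for 4 of 43 (9.30%, against 13.5%). No E2F-type match shared a base with another motif in the 57 windows. A match describes these letters only, and no binding was measured.

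For 16 of the replication genes a protein-coding neighbour starts on the other strand within 1000 bases upstream, or overlaps the start by at most 300 bases. In 9 of these pairs both genes were called, 5 in opposite directions and 4 in the same. In 4 pairs at least 1 gene was not called and in 3 the neighbour was not tested, where 79.7% of all tested genes were called, 40.3% lower and 39.4% higher. CDC45 fell while UFD1, a cofactor for protein extraction from the endoplasmic reticulum that starts 244 bases away, rose by 2.004 ± 0.06 (SE, adjusted p = 2.65e-17). TIPIN fell while MAP2K1, the kinase MEK1, starting 71 bases away, rose by 1.23 ± 0.06. On the rising side, RARS2, a mitochondrial arginyl-tRNA synthetase gene, rose by 0.90 ± 0.08 beside ORC3, and VPS35, a retromer gene, by 0.37 ± 0.05 beside ORC6. These 4 pairs were named after their values were seen.

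Other genes of the pathway were counted by list. Of 10 genes listed around licensing, the loading of the MCM ring, 8 fell and 1 rose, where 40.3% of all tested genes fell and 39.4% rose. Their median log2 fold change was -0.96. With the GC offset 7 fell and 2 rose, where 41% of all tested genes fell and 38.4% rose. MCM7, a helicase subunit, stood at 0.22 with the offset and -0.27 without it, and CDT1, a loading factor, at 0.42 with it and -0.35 without it. CDC6, the loading ATPase that had risen by 0.18, did not pass with the offset (0.02, adjusted p = 0.738). GMNN, which blocks loading, was not called without the offset (0.08) and fell with it (-0.19, adjusted p = 0.0185). MCM5, with the smallest p, changed by -2.56 ± 0.09 (SE, adjusted p = 1.32e-16). Of 38 further replication genes 20 fell, 10 rose and 8 did not pass, with a median of -0.28, where 40.3% of all tested genes fell and 39.4% rose. CHTF18, a subunit of an alternative clamp loader, had the smallest p and changed by -2.80 ± 0.11 (adjusted p = 8.17e-16). Together 28 of these 48 genes fell, where 40.3% of all tested genes fell. With library totals 9 of the 10 licensing genes fell and 0 rose, and 26 of the 38 further genes fell and 5 rose, where 48.6% of all tested genes fell and 31.8% rose. With the GC offset 22 of the 38 fell and 8 rose, where 41% of all tested genes fell and 38.4% rose. Of 12 mitosis genes 10 fell and 1 rose, where 40.3% of all tested genes fell and 39.4% rose. CDC20, an activator of the anaphase-promoting complex, changed by -1.81 ± 0.07 (adjusted p = 3.76e-15). The part of a shift in cell cycle stage in these changes was not tested.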

How the data were processed

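RNA from 3 curcumol-treated and 3 control ACHN cultures was sequenced as paired-end poly(A) libraries, per the labels' protocols. The authors deposited raw counts per gene, as whole numbers under Ensembl identifiers, with no normalization. Per the submitters' processing notes, the genome build was GRCh38, also named hg38. The sources used here do not name the aligner, counting tool, annotation or strand use. Gene identifiers matched GENCODE 29 (Ensembl 94), which gave coordinates, exon lengths and GC content of the longest transcript. Joined exon length can exceed mRNA length, which lowers a level per kilobase. Replicates are described as independent, p-values measure the spread between them, and no pair of libraries agreed within sampling noise (chi-square over its degrees of freedom, 3.48 to 8.00). The common biological coefficient of variation was 0.0731.

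Genes passing filterByExpr (15160) were TMM-scaled and tested in edgeR 4.0.16 (quasi-likelihood, R 4.3.3, robust, two-sided), adjusted by Benjamini-Hochberg over all of them at 0.05. SE was taken as |log2 fold change| over √F. CPM values use TMM factors. Simulated data served to check the code, which cannot show the right scaling for libraries where 79.7% of tested genes were called. TMM factors were 0.900 to 0.919 in curcumol libraries and 1.089 to 1.103 in control libraries. With library totals the call changed for PCNA, RFC1, RPA1, RPA2 and PRIM2, and the sign for ORC5 and RPA2. The genes, role groups and lists were chosen with earlier results of these data known. Values per library are given for the gene with the smallest p and, in groups of 3 or more, the largest p of each role, the 6 largest falls and every gene that rose. PCNA and the untested RNASEH2A are also given per library, outside this rule. Other genes are given by fold change. Alternatives were DESeq2 1.42.0, limma-voom (limma 3.58.1), median-of-ratios size factors, library totals, no filter, a stricter filter (mean CPM of 1 or more, 50 counts), a block for replicate number, an offset from a spline of GC content (5 degrees of freedom), block and offset together, and each library left out. Promoter sequences are from RefSeq (GRCh38.p14). Of the replication genes, 25 share exonic bases with another annotated gene, and pseudogenes named for one had at most 14 counts in a library.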

Additional observations from a re-analysis of the deposited data

How the results depend on the processing

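Under 15 alternative fits, 32 of the 33 genes that fell and 7 of the 9 that rose kept their direction and call, the exceptions being FEN1, ORC3 and PRIM2. The 5 genes not called each changed call or sign in at least 1 fit. The count of genes that fell was 33 to 37 and of those that rose 7 to 10, or 32 to 33 and 9 with each library left out. Library totals moved the median of the replication genes to -1.20 and that of all genes to -0.28. The difference in their share of counts, -0.202 percentage points, was -0.219 without the 50 most abundant genes. On the given strand alone 8 genes held the E2F-type motif. Signs turned for ORC5 with library totals (-0.11) and with the GC offset (-0.28, also with the block), for RPA2 with library totals (-0.18), for PRIM2 with the GC offset (-0.011, and -0.0077 with the block) and for FEN1 with the GC offset (0.050, also with the block). RFC1 ran from -0.092 to 0.035 as each library was left out, turning without control replicate 3 or curcumol replicate 1. Among the licensing genes MCM7 and CDT1 turned with the GC offset (0.22 and 0.42). Of the 48 licensing and further genes 27 to 35 fell, where 40.3% of all tested genes fell in the main fit and 48.6% with library totals. The cause of these changes was not tested.

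Deviations from group means gave r = 0.024, -0.012 and 0.075 between libraries of the same replicate number. Between different numbers r was -0.076 to 0.054. Whether same-numbered cultures were handled together cannot be told from these values. With the replicate block 33 genes fell and 9 rose. Overlap between groups was not recomputed under the GC offset, DESeq2, limma-voom, the filters or the block. Few counts limit POLA2 and RNASEH2A.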

Other observations

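Genes around the replication list that were named after their values were seen include relatives of its enzymes. RRM2B, the p53-inducible relative of RRM2, had 137, 154 and 152 CPM in curcumol libraries and 44.3, 47.5 and 51.2 CPM in control libraries, a rise of 1.63 ± 0.07 on the log2 scale (SE, adjusted p = 1.16e-14 in edgeR), where RRM2 fell. TOP2B, the topoisomerase relative that is not tied to the cell cycle, had 220, 245 and 241 CPM in curcumol and 107, 96.7 and 119.8 CPM in control, a rise of 1.13 ± 0.07 (adjusted p = 4.35e-12), where TOP2A fell. With the GC offset these rises were 0.98 and 0.63. The groups did not overlap for either gene, as for 81% of all tested genes, of which 39.4% were called higher.

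Among other genes of nucleotide metabolism, also named after their values were seen, DUT, which removes dUTP, changed by -2.43 ± 0.10, TYMS, thymidylate synthase, by -1.29 ± 0.08 and DTYMK, thymidylate kinase, by -0.95 ± 0.08 (SE), where 40.3% of all tested genes fell. As these genes were picked by value, that share is no test of them. DCK of the same list did not pass (0.02 ± 0.10, adjusted p = 0.885 in edgeR) and stood at -0.53 with the GC offset. DTYMK stood at -0.37 with the GC offset. RNASEH2B and RNASEH2C, the accessory subunits of ribonuclease H2, changed by -1.64 ± 0.12 and -0.91 ± 0.13, and RNASEH2C stood at -0.49 with the GC offset. RNASEH2B had 142, 118 and 111 counts in curcumol libraries and 474, 470 and 453 in control libraries, while the catalytic subunit RNASEH2A had at most 3 counts in curcumol and 15 in control.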
